A study of Mus musculus with 24 samples.

Results

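Tumours labelled with an excluded immune infiltrate were compared with tumours labelled as immune deserts, in the well-counted libraries of both classes. The comparison held 8 of the 24 samples of the series. These were 3 of the 4 excluded samples (codes A0, CF2-2784-1 and CF2-2784-2) and 5 of the 7 desert samples (F0, G0, CF2-2973, CF2-2819 and FF2-2809). Excluded LF2-5249 and desert CF2-2819-1 and CF2-2819-2 were left out because their summed counts were only 5262 to 14089. Every sample is mammary mTDT tissue grown in a BALB/c mouse host, and the labels name no treatment, genotype or age. The first letter of a code is tied by the labels to the origin of the tumour, and the codes end in 0 or carry F2, whose meaning is not stated. Letter C was the only one with well-counted libraries of both classes, so the 2784 pair was also compared with CF2-2973 and CF2-2819 alone. The labels do not say how the infiltrate class was assigned, whether it drew on these values, or whether libraries that share a code number, as the 2784 pair does, came from 1 tumour. The p-values therefore measure only the spread between these samples, which may be technical.

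In common use, an immune desert holds few lymphocytes, while in an excluded tumour lymphocytes gather at the margin or in the stroma and stay away from the tumour cells. Interferons bind receptors on most cells and, through factors such as Stat2 and Irf9, switch on antiviral genes such as the Ifit, Oas and Isg15 genes, together with the machinery that loads peptides onto MHC class I for T cells. Cxcl1, Cxcl2 and Cxcl3 are chemokines that draw neutrophils through Cxcr2, and they are made with Il1b and Il6 in acute inflammation, largely through NF-kB. Macrophages depend on Csf1 and its receptor Csf1r, and oxygen shortage raises glycolytic genes and Adm through Hif1a.

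Promoters of 6 genes are shown, 4 that were higher and 2 that were lower in excluded tumours. A core of the interferon-stimulated response element, GAAANNGAA, and a core of the NF-kB site, GGNNTTTCC, were searched on both strands. The sequences are the 250 bases upstream of the start of the RefSeq gene (GRCm38.p6), 5′ to 3′ on the strand of the gene. Capitals mark only GAAANNGAA in Ifit3, Oas1a, Isg15 and Cxcl10 and only GGNNTTTCC in Cxcl2 and Cxcl3. Ifit3, Isg15 and Cxcl10 each also hold 1 match to GGNNTTTCC or its complement, left in lower case. Ifit3, Oas1a, Isg15 and Cxcl10 carry GAAANNGAA, or its complement in the case of Ifit3, and overlapping matches merge into 1 run in Oas1a and Isg15.
Ifit3, chr19:34583279-34583528, plus strand: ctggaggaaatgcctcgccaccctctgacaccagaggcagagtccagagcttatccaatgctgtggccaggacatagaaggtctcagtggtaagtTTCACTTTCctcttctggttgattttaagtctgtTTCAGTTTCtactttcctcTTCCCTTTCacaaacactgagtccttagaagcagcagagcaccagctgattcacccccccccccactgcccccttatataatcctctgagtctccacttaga
Oas1a, chr5:120907526-120907775, minus strand: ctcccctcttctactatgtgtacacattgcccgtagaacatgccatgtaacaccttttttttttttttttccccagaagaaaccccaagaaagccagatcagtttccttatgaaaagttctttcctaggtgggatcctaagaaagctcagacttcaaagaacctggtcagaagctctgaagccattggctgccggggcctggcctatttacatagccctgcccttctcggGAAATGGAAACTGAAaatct
Isg15, chr4:156200819-156201068, minus strand: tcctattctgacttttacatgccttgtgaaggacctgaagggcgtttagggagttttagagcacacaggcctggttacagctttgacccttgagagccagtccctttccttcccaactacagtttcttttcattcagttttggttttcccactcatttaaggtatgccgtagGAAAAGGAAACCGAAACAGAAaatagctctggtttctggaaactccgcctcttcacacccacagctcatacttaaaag
Cxcl10, chr5:92348890-92349139, minus strand: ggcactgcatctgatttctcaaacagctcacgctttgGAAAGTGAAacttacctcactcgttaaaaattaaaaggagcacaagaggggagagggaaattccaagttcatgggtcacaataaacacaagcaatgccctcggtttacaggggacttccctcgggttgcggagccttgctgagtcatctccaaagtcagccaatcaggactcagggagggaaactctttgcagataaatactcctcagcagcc
The promoters of Cxcl2 and Cxcl3 carry GGNNTTTCC.
Cxcl2, chr5:90903649-90903898, plus strand: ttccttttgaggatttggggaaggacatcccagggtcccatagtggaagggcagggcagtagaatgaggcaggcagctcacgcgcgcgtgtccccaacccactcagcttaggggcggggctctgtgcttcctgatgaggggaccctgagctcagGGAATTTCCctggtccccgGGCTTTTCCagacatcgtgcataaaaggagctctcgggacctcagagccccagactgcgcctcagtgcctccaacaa
Cxcl3, chr5:90785851-90786100, plus strand: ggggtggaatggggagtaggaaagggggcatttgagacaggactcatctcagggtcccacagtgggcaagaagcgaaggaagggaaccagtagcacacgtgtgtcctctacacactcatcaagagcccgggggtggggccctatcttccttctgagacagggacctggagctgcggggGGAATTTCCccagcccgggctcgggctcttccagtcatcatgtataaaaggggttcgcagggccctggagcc
In windows of 300 bases, of which 50 lie after the start, GAAANNGAA was found in 8.56% of all 32851 mouse promoters. A gene was counted if any of its promoters matched. By that rule GAAANNGAA was found in 9.76% of all 27025 genes and in 16.1% of the 547 measured genes with a promoter entry. It was found in 10 of the 18 type I interferon response genes with an entry and in 1 of 12 genes of the neutrophil chemokine list. GGNNTTTCC was found in 5.82% of all promoters, in 6.62% of all genes and in 12.2% of the measured genes. It was found in 6 of the 12 neutrophil chemokine list genes (among them Cxcl1, Cxcl2, Cxcl3 and Il6) and in 4 of the 18 interferon genes. The patterns can share letters. A match describes the letters and is no evidence of a bound factor.

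RNA was counted on a NanoString panel, which counts barcoded probes bound to each transcript, and the values are log2 of a count times 1 factor per library. Values of 750 genes were compared. Summed counts were 718971 to 1090063 in excluded libraries and 107677 to 1110314 in desert libraries, lowest in FF2-2809. Inside letter C they were 976271 and 718971 in the excluded pair, against 447375 and 348430 in the desert libraries, so depth moved with class there. The detection limit, drawn from the 75 genes with the lowest mean values, was 1.686 to 2.899 in excluded and 1.512 to 4.248 in desert libraries, and 586 genes lay above it in at least 4 of the 8. The 2784 libraries correlated at r = 0.991 across genes, while the other 27 pairs of libraries gave 0.839 to 0.956. Counts of the 2784 pair differed by more than counting noise (chi-square per degree of freedom 8.59), which does not show that they came from separate tumours. They were kept as 2 samples, as labelled, and with the pair averaged 60 genes passed inside letter C, where 178 passed otherwise, or 0 with the error of all libraries compared.

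Defining markers showed leukocytes in every library but little sign of T cells. Ptprc, the pan-leukocyte CD45, was 7.72, 8.11 and 8.14 in excluded libraries (A0, 2784-1 and 2784-2, an order kept below) and 7.49, 7.61, 7.10, 8.35 and 7.88 in desert libraries (F0, G0, 2973, 2819 and FF2-2809, likewise). The macrophage marker Cd68 was also above 8 in all of them. Cd8a was below the limit in all 8 libraries, and Cd3e lay above it in 3, all excluded. Epcam, a surface protein of epithelial cells, was at 10.96 in A0 and below 4 in the other 7 libraries, and the epithelial cadherin Cdh1 was above the limit in A0 alone. The oestrogen receptor Esr1 was lower in A0, at 4.16, than in the 2784 pair, at 5.55 and 5.54, or in FF2-2809, at 6.01. It was higher in A0 than in CF2-2973 and CF2-2819. In whole tissue, fewer cells of a type and less RNA per cell cannot be told apart.

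No single gene passed the test between excluded and desert tumours. With limma's test, 0 of 750 genes had a Benjamini-Hochberg adjusted p under 0.05 (0%). An unadjusted p under 0.05 was reached by 71 genes (9.47%), 50 of them higher (6.67%) and 21 lower (2.8%) in excluded tumours. For 59 genes (7.87%) the 3 excluded libraries did not overlap the 5 desert ones, 45 with excluded higher (6%) and 14 with excluded lower (1.87%). This split depends on scaling, since all genes together sat 0.13 log2 units higher in excluded tumours at the median. With each library recentred on its median, 29 genes were apart with excluded higher and 20 with excluded lower, and 29 were higher and 28 lower at an unadjusted p under 0.05. Among lists of 10 or more measured genes, the type I interferon response had the highest median difference and the neutrophil chemokines the lowest. Of the shorter lists, the 7 epithelial genes had a higher median still (1.30, but 0.43 inside letter C). The 6 mast cell genes had a lower one (-1.27).

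Most listed type I interferon response genes were higher in excluded tumours, though none passed the adjusted test. The list, like the others here, was written with earlier results of these data known. Of 22 measured genes, 21 had a positive difference (58.3% of all genes did). Among them 14 had an unadjusted p under 0.05 and 10 had no overlap between the classes. By those rules 6.67% and 6% of all genes were higher. The list median was 1.16 log2 units against 0.13 for all genes, or 0.98 after recentring. The mean level over the list was 7.34, 6.48 and 6.47 in excluded libraries and 5.40, 5.71, 5.49, 5.89 and 6.22 in desert libraries, without overlap. Oas1a, an enzyme that senses double-stranded RNA and activates RNase L, was 8.09, 7.73 and 7.78 in excluded libraries and 6.03, 6.33, 6.0, 7.0 and 6.95 in desert libraries. Every excluded library was above every desert one, a difference of 1.41 (SE 0.37, 2.65-fold, adjusted p = 0.408). Oas2, of the same enzyme family, was 6.71, 5.53 and 5.71 in excluded and 3.94, 5.43, 3.92, 3.16 and 4.49 in desert libraries, a difference of 1.80 (SE 0.53, adjusted p = 0.427). Its highest desert library, G0, lay just below the lowest excluded one.

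Trim21, a cytosolic receptor for antibody-coated virus, was 6.31, 5.72 and 5.84 in excluded libraries and 4.17, 4.77, 4.04, 4.72 and 5.19 in desert libraries (difference 1.38, SE 0.37, adjusted p = 0.42). The transcription factor Irf7, which amplifies interferon production, was 8.63, 7.38 and 7.11 in excluded and 4.95, 6.16, 5.72, 5.96 and 7.17 in desert libraries (difference 1.71, SE 0.55, adjusted p = 0.439). FF2-2809 reached the level of the 2784 pair, so the classes overlapped. Isg15, a ubiquitin-like modifier, was 9.44, 9.08 and 8.89 in excluded libraries and 7.02, 7.26, 7.74, 8.59 and 8.40 in desert libraries. The antiviral gene Ifit3 was 7.92, 7.0 and 7.23 in excluded and 4.89, 5.03, 5.04, 7.29 and 5.88 in desert libraries, where CF2-2819 was as high as the excluded pair. Further members without overlap were Ifit1, Ifih1, Rsad2, Irf9, Herc6 and Tlr3, with differences of 0.59 to 1.34. Ifitm1, which blocks viral entry, was the only member with a negative difference, at -0.46.

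The size of this group difference rested partly on A0. A0 had the highest list level of the 8 libraries, and without it 4 members, not 14, had an unadjusted p under 0.05. With the letter as a fixed block 4 members did so as well, but that fit takes the class difference from letter C alone. The direction was the same inside letter C, which leaves A0 out. There the list median was 0.87, or 0.64 after recentring, from an excluded pair that may be 1 tumour. Outside C, where A0 is the only excluded library, the median was 1.51, and 20 of the 22 members had a positive difference in both.

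**Figure D1:**
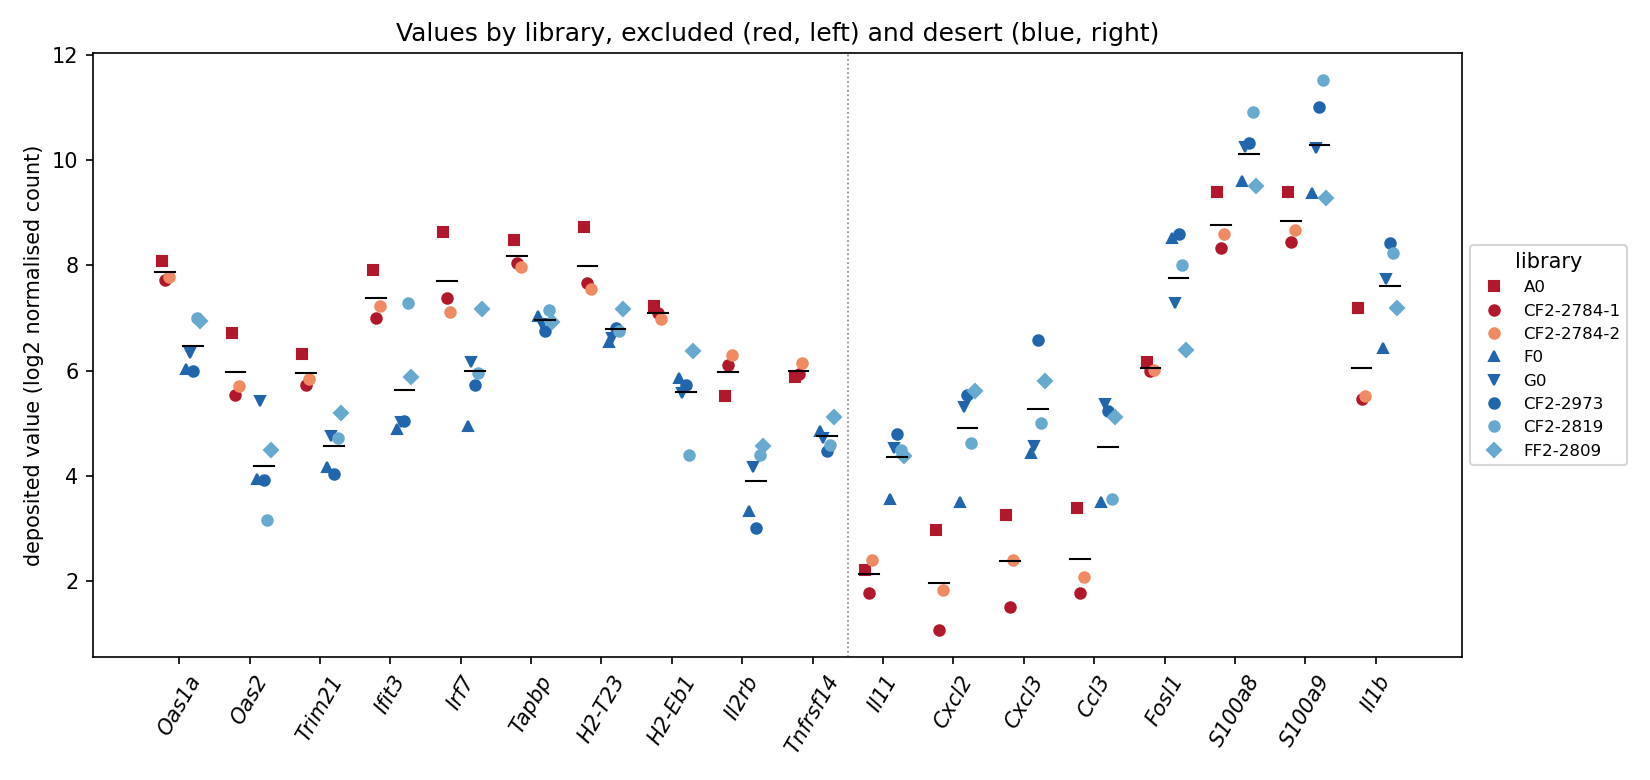
Values of 18 genes on the log2 scale of the deposited table, by library, with excluded libraries in red to the left and desert libraries in blue to the right of each gene and black bars for class means. In Oas1a, Trim21, Tapbp and Tnfrsf14 all 3 excluded libraries lie above all 5 desert ones, and in Il11, Cxcl2 and Cxcl3 they lie below them.

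Genes of MHC class I presentation had their highest mean level in A0. Of 14 measured genes 13 had a positive difference, 4 reached an unadjusted p under 0.05 and 4 had no overlap, with a median of 0.78, where 6.67% and 6% of all genes were higher by those rules. The mean level of the list was 7.74, 6.69 and 6.83 in excluded libraries and 6.31, 5.86, 6.34, 6.77 and 6.59 in desert libraries, so 2784-1 lay below desert 2819. Inside letter C the median difference was 0.23, or 0.01 after recentring, with 0 genes called, and outside C, where A0 is the excluded library, it was 1.58. Tapbp, the tapasin that holds empty class I molecules at the peptide transporter, was 8.49, 8.05 and 7.97 in excluded libraries and 7.03, 6.89, 6.76, 7.16 and 6.93 in desert libraries. The difference was 1.21 (SE 0.30, 2.32-fold, adjusted p = 0.355), with little spread in either class. The non-classical class I gene H2-T23 was 8.73, 7.66 and 7.55 in excluded libraries and 6.55, 6.62, 6.82, 6.76 and 7.17 in desert libraries. Tap1, a subunit of the peptide transporter, was 7.29, 5.70 and 5.64 in excluded and 5.46, 4.43, 5.44, 5.34 and 5.30 in desert libraries. Its classes were apart, but A0 stood well above the 2784 pair, which lay close to the desert libraries.

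H2-Eb1, H2-Ab1 and Cd74 were the MHC class II genes without overlap between the classes, 3 of 8 measured. With excluded higher, 6% of all genes were apart. Of the 8 genes 6 had a positive difference, with a median of 0.62. H2-Eb1, a class II beta chain, was 7.23, 7.09 and 6.98 in excluded and 5.86, 5.58, 5.73, 4.41 and 6.37 in desert libraries (difference 1.51, SE 0.45, adjusted p = 0.427). Cd74, the invariant chain, was 9.59, 9.51 and 9.57 in excluded libraries and 9.12, 8.36, 8.69, 7.09 and 9.30 in desert libraries, an excluded SD of 0.04 against a desert SD of 0.88. H2-Ab1 likewise had no overlap (difference 1.08, SE 0.39). The interferon gamma list had 9 of 15 members positive and a median of 0.21, or 0.03 after recentring. Inside letter C 10 of the 15 were negative, with a median of -0.19. Outside C, where A0 is the excluded library, the list had a median of 1.24. Its member Cxcl10, a chemokine for activated T cells, was 7.71, 7.48 and 7.76 in excluded and 6.10, 5.23, 6.56, 6.82 and 6.86 in desert libraries.

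Most listed genes that recruit neutrophils and carry acute inflammation were lower in excluded tumours, though none passed the adjusted test. Of the 14 measured genes of that list 12 had a negative difference (41.7% of all genes did), and the median was -1.06. Among them 6 had an unadjusted p under 0.05 and 3 had no overlap. By those rules 2.8% and 1.87% of all genes were lower. The list mean was 4.32, 3.31 and 3.71 in excluded libraries and 4.23, 5.29, 5.53, 4.97 and 4.89 in desert libraries, with F0 just below A0. Il11, a cytokine of the Il6 family, had the smallest p of all genes at 0.00018. Its values were 2.21, 1.79 and 2.40 in excluded libraries, the first below the limit of A0, and 3.57, 4.54, 4.80, 4.5 and 4.39 in desert libraries. The classes were more than 1 log2 unit apart, with a difference of -2.23 (SE 0.37, 0.213 times the desert level, adjusted p = 0.135). Across the 22 settings run the adjusted p of Il11 ran from 0.0556 to 0.998 and its difference from -2.56 to -1.1.

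Cxcl2 was 2.98, 1.08 and 1.84 in excluded libraries, the 2784 pair being below the limit, and 3.5, 5.31, 5.53, 4.62 and 5.62 in desert libraries. The difference was -2.95 (SE 0.60, adjusted p = 0.207). Cxcl3 followed the same order, with 3.27, 1.52 and 2.40 in excluded and 4.43, 4.58, 6.58, 5.0 and 5.81 in desert libraries (difference -2.89, SE 0.59, adjusted p = 0.207). For both, every excluded library was below every desert one, and excluded values below the limit carry background rather than a level. Cxcl1 overlapped: it was 5.80, 5.71 and 5.71 in excluded and 6.22, 8.58, 8.77, 8.94 and 5.66 in desert libraries. Il1b, the secreted interleukin 1 beta, was 7.20, 5.46 and 5.52 in excluded and 6.43, 7.75, 8.42, 8.24 and 7.20 in desert libraries, where A0 sat inside the desert range.

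Neutrophil genes themselves were split. Of 10 measured genes 7 had a negative difference and 3 (S100a8, Il1r2 and Fpr1) had no overlap, with a list median of -0.29. By those rules 41.7% and 1.87% of all genes were lower. S100a8, a subunit of calprotectin and among the most abundant proteins of neutrophils, was 9.39, 8.33 and 8.60 in excluded libraries and 9.61, 10.25, 10.33, 10.91 and 9.50 in desert libraries (difference -1.35, SE 0.43, adjusted p = 0.439). A0 and FF2-2809 nearly met. Its partner S100a9 overlapped at A0, with 9.40, 8.45 and 8.67 in excluded and 9.37, 10.23, 11, 11.51 and 9.28 in desert libraries. Ccl3, a monocyte chemokine, was 3.40, 1.79 and 2.08 in excluded and 3.5, 5.37, 5.23, 3.56 and 5.13 in desert libraries.

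The AP-1 subunit Fosl1 stood near 1 level in excluded tumours, at 6.16, 6.0 and 6.02, while desert libraries had 8.52, 7.28, 8.60, 8.01 and 6.39. Of the 8 immediate early and stress genes 6 had a negative difference, with a median of -0.57. Mast cell genes had the lowest list median, -1.27, with 5 of 6 negative. This followed F0 and G0 more than the class: the protease Tpsab1 was 2.38, 4.43 and 4.55 in excluded and 7.45, 6.76, 3.40, 4.77 and 4.07 in desert libraries.

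Lymphocyte genes lay low, and most of their list differences came from values near background. Of 21 T cell genes 17 had a positive difference (median 0.51), but only 10 were above the limit in 4 or more libraries. Il2rb, the receptor chain for Il2 and Il15 on T and natural killer cells, was well measured and had the smallest p on the higher side (0.00124). It was 5.52, 6.10 and 6.30 in excluded and 3.34, 4.18, 3.01, 4.41 and 4.58 in desert libraries, a difference of 2.07 (SE 0.45, 4.2-fold, adjusted p = 0.233). The kinase Zap70 was 2.98, 2.91 and 2.75 in excluded and 2.41, 2.12, 0.89, 1.72 and 1.49 in desert libraries, the last 3 below their limits. Of 14 CD8 and cytotoxic genes 11 had a positive difference (median 0.84), and the protease Gzmb was 3.32, 4.60 and 4.37 in excluded and 1.05, 2.46, 2.12, 1.92 and 4.39 in desert libraries. FF2-2809 was as high as the excluded libraries there. All 8 B cell genes had a negative difference (median -0.77), but 1 of them was above the limit in 4 or more libraries.

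Tnfrsf14, Col4a5 and Mki67 were among the single genes with higher values in excluded libraries. Tnfrsf14, the receptor for Light and Btla, was 5.88, 5.93 and 6.15 in excluded and 4.85, 4.72, 4.48, 4.59 and 5.13 in desert libraries (difference 1.23, SE 0.31, adjusted p = 0.355). Col4a5, a basement membrane collagen chain, was 6.88, 7.38 and 7.33 in excluded and 5.18, 5.91, 4.31, 4.13 and 6.58 in desert libraries. Mki67, a marker of dividing cells, was 10.28, 9.96 and 10 in excluded and 8.84, 9.72, 9.13, 9.27 and 9.39 in desert libraries, without overlap and 1.76-fold apart. The proliferation list had a median of 0.15 that became -0.03 after recentring, and the list of mesenchymal regulators and matrix one of 0.10 that became -0.09. Macrophage genes showed 0 members apart and a median of 0.24, which was 0.06 after recentring.

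Inside letter C the 2784 pair differed from CF2-2973 and CF2-2819 in many genes. With limma on these 4 libraries 178 genes (23.7%) passed an adjusted p under 0.05, 105 higher (14%) and 73 lower (9.73%) in the excluded pair. After recentring 64 were higher and 95 lower, so the balance of directions belongs to the scaling. Averaging the 2784 pair to 1 sample left 60 genes, all among the 178. When the error was estimated from all 8 libraries (means for each letter and class), 0 genes passed, and with all 16 well-counted libraries of the series 21 did, again all among the 178. Depth was confounded with class here, and its part in the result was not tested. In 544 genes (72.5%) the 2 pairs did not overlap. Lack of overlap is reached more easily with fewer libraries, and the excluded pair may be 1 tumour.

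Macrophage genes were mostly higher in the excluded pair, in a comparison where 14% of all genes were called higher and 9.73% lower. Of 24 measured genes 18 had a positive difference (55.6% of all genes did) with a median of 1.03, against 0.18 for all genes. The test called 11 higher and 2 lower, but only 6 higher after recentring, 3 with the pair averaged, 3 without CF2-2784-1, 4 without CF2-2784-2 and 0 with the error of the 8 libraries. Siglec1, a sialic acid receptor of resident macrophages, rose to 7.74 and 7.88 in the excluded pair, against 4.14 and 4.56 in the desert libraries (difference 3.45, SE 0.26, 11-fold, adjusted p = 0.00957). Csf1r was 9.65 and 9.73 in the excluded pair and 7.07 and 7.38 in the desert libraries (adjusted p = 0.0123), and its ligand Csf1 was 8.80 and 8.90 against 6.69 and 6.72. The mannose receptor Mrc1 was 10.89 and 10.94 in the excluded pair against 7.80 and 9.10, and the complement subunit C1qa was 11.80 and 11.61 against 9.69 and 10.48. The members called lower were Arg1, an arginase of myeloid cells (3.66 and 3.61 in the excluded pair against 7.08 and 5.42), and Clec4e, a C-type lectin that inflammation induces (4.35 and 4.57 against 6.41 and 6.31).

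Some cytotoxic genes rose in the same pair. Gzma, a granzyme, was 7.53 and 7.56 in the excluded pair and 3.01 and 5.22 in the desert libraries (difference 3.43, SE 0.78, adjusted p = 0.0454). The pore-forming protein Prf1 was 4.5 and 4.45 in the excluded pair and 0.31 and 2.24 in the desert libraries, both below their limits. Gzmb and the granule gene Nkg7 passed as well, again from desert values below the limit. So 4 of 14 cytotoxic genes were called higher, where 14% of all genes were, while Cd8a stayed below the limit in all 4 libraries. The natural killer receptor Ncr1 was 3.91 and 3.96 in the excluded pair against 1.89 and 3.62, and did not pass (adjusted p = 0.215). Of 15 Toll-like receptor and innate sensor genes 5 were called higher, namely Tlr3, Tlr5, Tlr7, Tlr8 and Tlr9. Among interferon response genes 6 of 22 were called higher and 0 lower, where 14% and 9.73% of all genes were. The limma differences were 2.08 for Oas2 (SE 0.34, adjusted p = 0.0251) and 1.41 for Irf7 (SE 0.25, adjusted p = 0.0294).

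Inflammatory mediators were lower in the excluded pair. Of 14 genes 11 had a negative difference (44.4% of all genes did) and 7 were called lower (9.73% of all genes were), with a median of -1.35. Cxcl1 was 5.71 and 5.71 in the excluded pair and 8.77 and 8.94 in the desert libraries (difference -3.14, SE 0.22, 0.113 times the desert level, adjusted p = 0.00957). Il1b was 5.46 and 5.52 in the excluded pair and 8.42 and 8.24 in the desert libraries (difference -2.84, SE 0.23, adjusted p = 0.0104). Cxcl2, Cxcl3, Csf3, Il11 and Lif were the other members called, and 3 of these (Cxcl2, Cxcl3 and Csf3) had at least 1 excluded value below the limit. S100a9 was 8.45 and 8.67 in the excluded pair against 11 and 11.51 (difference -2.70, SE 0.29, adjusted p = 0.0123), and S100a8 also passed. The monocyte chemokine Ccl2 was 6.81 and 6.93 in the excluded pair against 9.51 and 10.12.

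Of 21 hypoxia and glycolysis genes 16 had a negative difference in the excluded pair (median -0.70). Of these 21 genes 8 were called lower and 2 (Pkm and Angptl4) higher, where 9.73% and 14% of all genes were. The count called lower was 4 with the pair averaged or without either of its libraries, settings that leave 1 excluded sample, and 4 with the error of 16 libraries. It was 0 with the error of 8 libraries, with the low-count libraries, and with the pair averaged and the error of all libraries compared. Adm, the vasodilator peptide adrenomedullin, was 2.66 and 2.92 in the excluded pair and 8.32 and 6.64 in the desert libraries (difference -4.69, SE 0.62, 0.0388 times the desert level, adjusted p = 0.0162). The mitophagy receptor Bnip3 was 7.14 and 7.08 in the excluded pair and 9.64 and 9.70 in the desert libraries. The glucose transporter Slc2a1 was 7.27 and 7.43 in the excluded pair against 10.06 and 9.28, and the lactate dehydrogenase Ldha 10.68 and 10.58 against 11.90 and 11.83. P4ha2, Pdk1, Aldoa and Aldoc were the other called members whose differences, -0.94 to -2.27, pointed the same way.

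Id4, Myc, Cdkn1c and Met were called inside letter C, and Id4 had the largest difference of the genes called there. Id4, an inhibitor of basic helix-loop-helix factors in mammary basal cells, was 8.86 and 8.64 in the excluded pair and 2.95 and 1.24 in the desert libraries, the last below the limit, so that background sets part of the difference (6.66, SE 0.62, adjusted p = 0.0123). It did not follow class outside C, where it was 7.93 in excluded A0 and 1.63, 8.26 and 9.55 in desert F0, G0 and FF2-2809. The proto-oncogene Myc was 8.28 and 8.30 in the excluded pair and 11.58 and 11.29 in the desert libraries (difference -3.14, SE 0.24, adjusted p = 0.00957). Outside C it was 8.22 in A0 and 8.64, 7.93 and 8.20 in the desert libraries, so the 2 C desert tumours stood alone among the 8. Cdkn1c, an inhibitor of cyclin-dependent kinases, was 4.95 and 4.51 in the excluded pair and 8.59 and 8.92 in the desert libraries. The receptor tyrosine kinase Met was 9.16 and 9.19 in the excluded pair and 12.12 and 12.80 in the desert libraries, while A0 had 14.55.

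Single genes of Notch and Wnt signalling were called in both directions. The Notch target Hey1 was 6.79 and 6.77 in the excluded pair and 3.67 and 3.62 in the desert libraries (difference 3.14, SE 0.22, adjusted p = 0.00957), and Notch1 and the ligand Dll1 also rose. Of 28 Wnt and Notch genes 6 were called higher and 3 lower, where 14% and 9.73% of all genes were, and the Wnt ligands split, with Wnt4 higher and Wnt5a and Wnt7b lower. Gas1, a growth arrest gene and hedgehog co-receptor, was 11.92 and 11.52 in the excluded pair and 9.23 and 8.81 in the desert libraries. The apelin receptor Aplnr, found on endothelium, was 6.24 and 6.44 in the excluded pair against 3.26 and 3.24. The stress factor Atf3 was 3.13 and 2.92 in the excluded pair and 6.43 and 6.27 in the desert libraries, and the collagenase Mmp13 was 5.30 and 5.65 against 9.50 and 8.65.

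**Figure D2:**
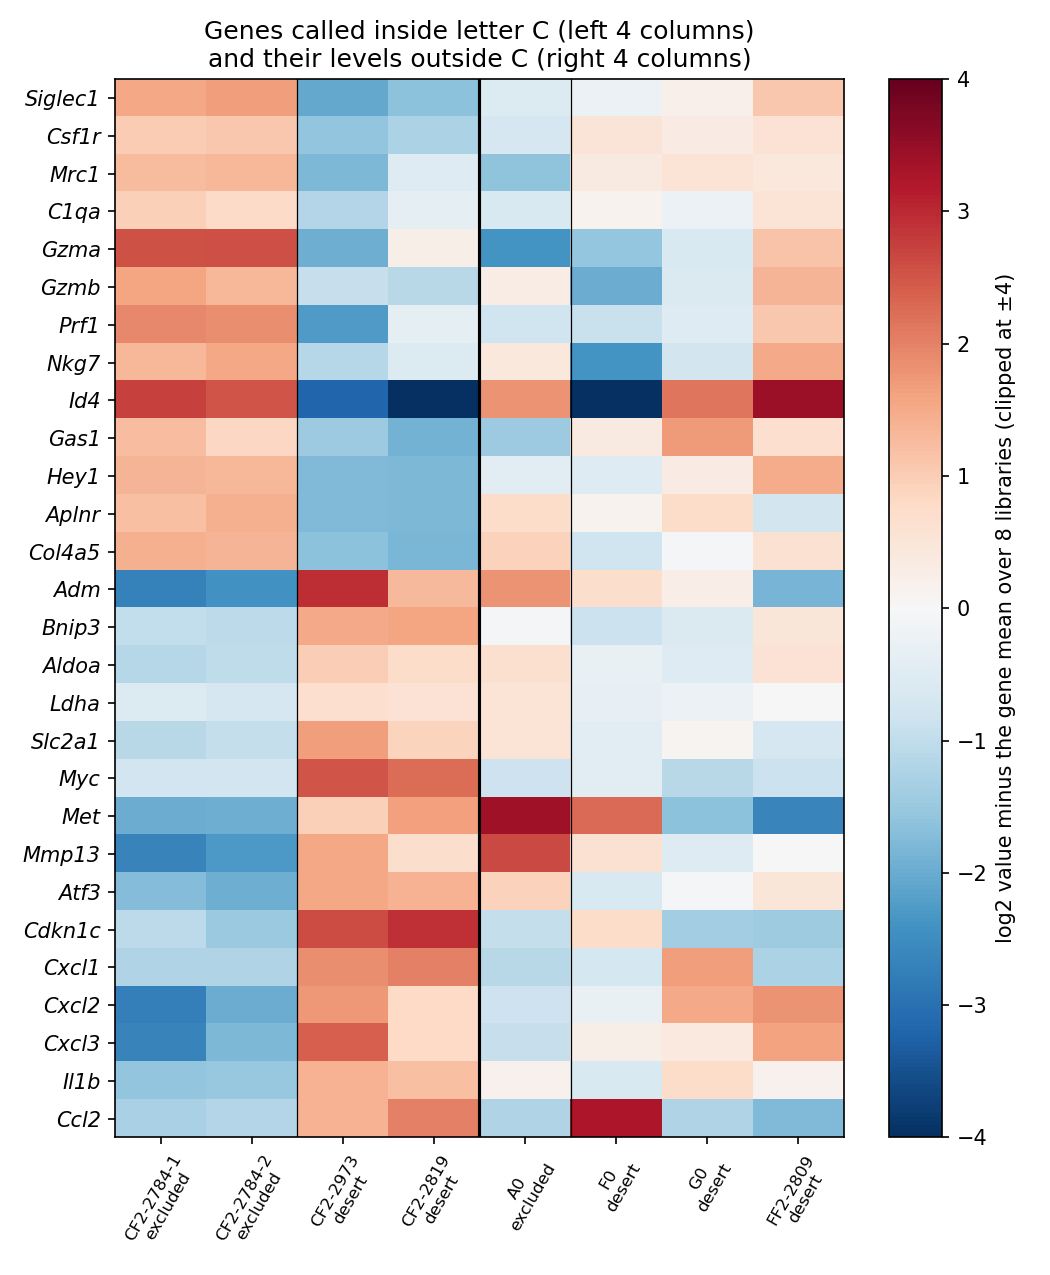
Values of 28 genes called inside letter C, as log2 value minus the mean of the gene over the 8 libraries, with excluded columns left of desert columns in the C block (left 4 columns) and in the rest (right 4 columns). Macrophage genes are high in the C excluded pair and low in A0, while Myc and Cdkn1c are highest in both C desert libraries.

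Outside letter C the only excluded library was A0, set against F0, G0 and FF2-2809. Differences inside and outside C were nearly unrelated across the 750 genes (r = -0.073, across genes, which are not replicates), and 51.1% of genes had the same sign in both. Of the 178 genes called inside C, 79 had the same sign outside it and 99 the opposite, and 19 had no overlap over all 8 libraries. Macrophage genes had the same sign in only 2 of 24 cases, with a median of 1.03 inside and -0.78 outside. Hypoxia and glycolysis genes had it in 4 of 21, with medians of -0.70 and 0.49. The interferon list, with 20 of 22, and the T cell list, with 15 of 21, had it mostly. The neutrophil chemokine list had it in 8 of 14, with medians of -1.35 inside and -0.51 outside.

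**Figure D3:**
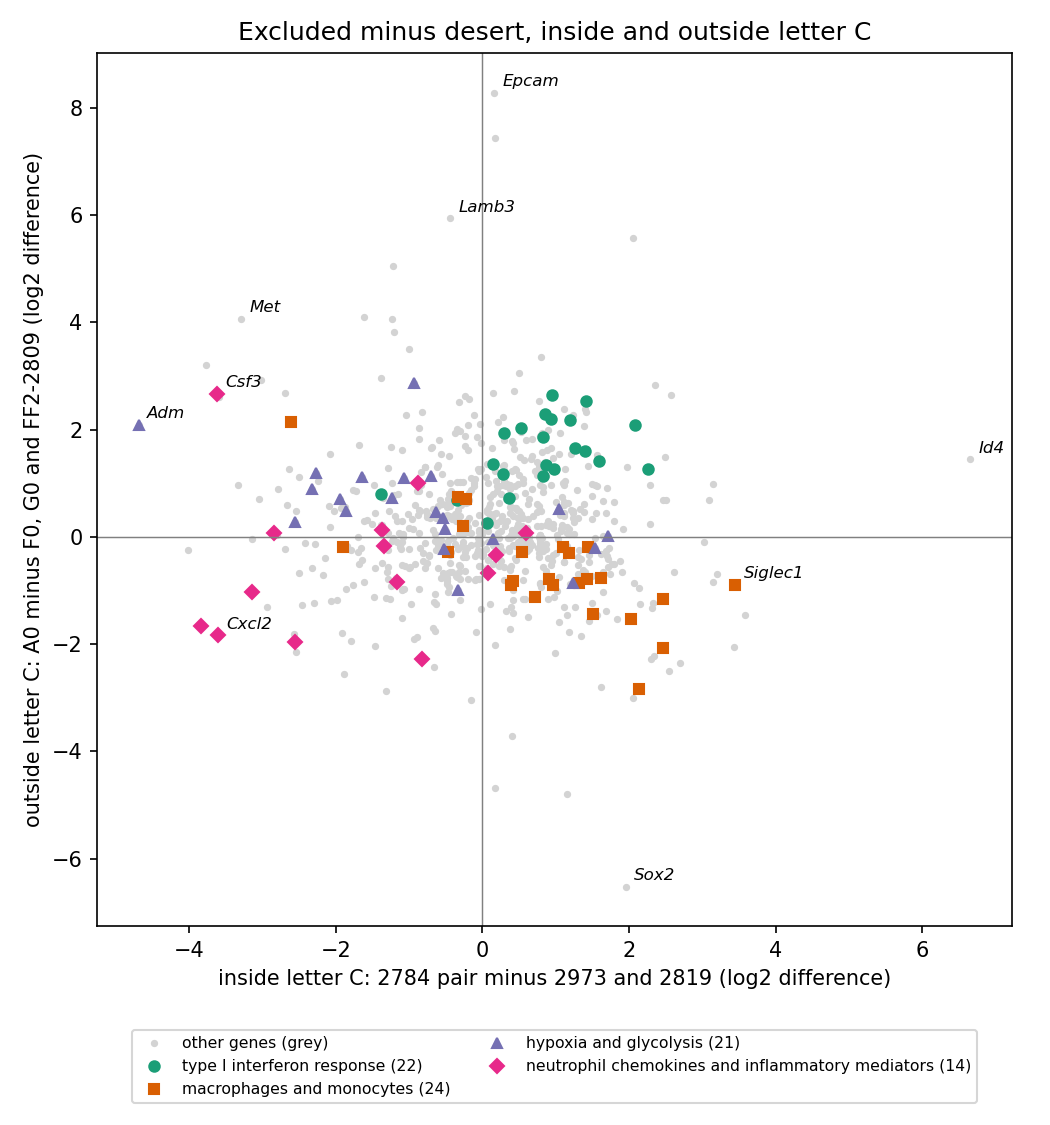
Excluded minus desert difference of each gene inside letter C (horizontal axis, log2) and outside it (vertical axis, log2), with 4 gene lists marked. Type I interferon genes lie mostly at the upper right, macrophage genes mostly in the lower right and hypoxia genes mostly in the upper left.

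The difference between the effects was tested by an interaction contrast in limma over the 8 libraries, where the outside effect rests on A0 alone. It passed for 19 genes (2.53%), 12 with the effect inside C above that outside (1.6%) and 7 below it (0.933%). Macrophage genes were among the first kind. For Mrc1 the interaction was 4.53 (SE 0.73, adjusted p = 0.0372), with a difference of 2.46 inside C and -2.07 outside, where A0 had 7.99 and F0, G0 and FF2-2809 had 9.97, 10.17 and 10.03. For Csf1r it was 3.61 (SE 0.50, adjusted p = 0.0359) and for Siglec1 4.34 (SE 0.76, adjusted p = 0.0444). Vcam1, an adhesion molecule of activated vessels and stroma, was 8.57 and 8.79 in the excluded pair against 5.51 and 6.78 in the C desert libraries, and 5.21 in A0 against 7.83, 7.45 and 7.88.

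The epithelial genes Epcam and Lamb3 gave the opposite interaction. The 7 listed epithelial genes were mixed, 3 with the same sign inside and outside C and 4 with the opposite. Epcam had a difference of 0.16 inside C and 8.28 outside (interaction -8.12, SE 1.39, adjusted p = 0.0406). Lamb3, a chain of a basement membrane laminin, was 6.16 in A0 and below the limit in the other 7 libraries (interaction -6.38, SE 1.08, adjusted p = 0.0406). Sox2, a stem cell transcription factor, ran the other way: it was 1.53 and below the limit in A0 but 6.43 to 8.99 in the other 7 libraries (interaction 8.48, SE 1.32, adjusted p = 0.0372). Outside C 4 genes passed (0.533%), all higher in A0, among them Epcam, Lamb3 and the prolactin receptor gene Prlr. The interaction calls depended on single libraries, since 0 passed with the 2784 pair averaged, without CF2-2784-1 or CF2-2784-2, or without G0, CF2-2973 or CF2-2819, while 51 passed without F0 and 53 without FF2-2809.

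**Figure D4:**
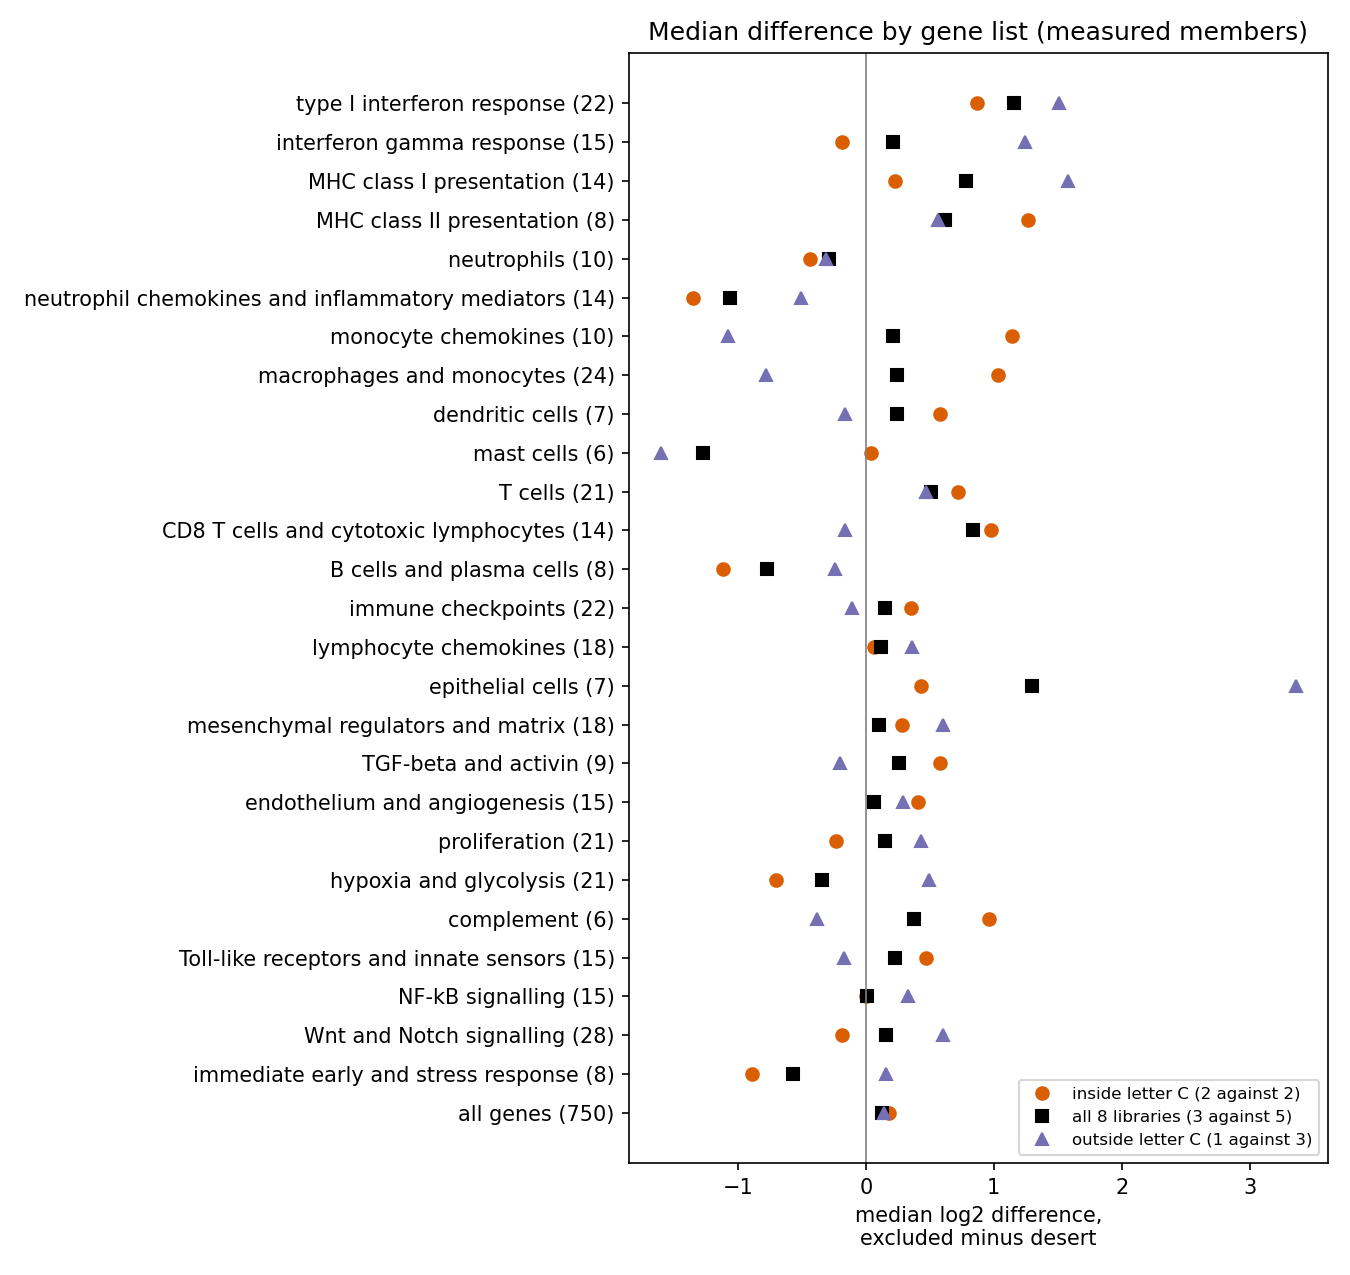
Median log2 difference, excluded minus desert, of the measured members of each gene list (number in brackets) over all 8 libraries, inside letter C and outside it, with all 750 genes at the bottom. The type I interferon list lies right of 0 in all 3 comparisons and the neutrophil chemokine list left of 0, while the macrophage list lies at 1.03 inside C and at -0.78 outside.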

How the data were processed

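NanoString barcodes were counted on Trizol-extracted total RNA, per the labels' protocols. The values the authors deposited are on the log2 scale. Each proved to be log2 of a whole count times 1 factor per library, within 0.001 for 100% of values. How that factor was set, and whether background was subtracted, is not given in these sources. Of 784 rows 34 held no value (14 control probes and 20 genes), leaving 750 genes, of which 744 symbols matched RefSeq directly and 6 as synonyms. Whole counts were recovered to give summed counts per library, and libraries under 100000 were left out. The detection limit lies 2 SD above the average log2 value of the 75 lowest genes. It reflects the spread between those genes within a library.

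Classes, letters and replicate numbers came from the labels. Deposited values were fitted with limma 3.58.1 (R 4.3.3), lmFit and eBayes, 2-sided, with Benjamini-Hochberg adjustment over 750 genes and a threshold of 0.05. The contrasts used the 8 libraries or the 4 of letter C, as the report states, and the interaction used means for class by C or not C. The fits were tested on simulated data. Gene lists are described by counts and medians, with no test. Members and lists were chosen with earlier results of these data known. Named genes were those past the threshold, at most 10 a direction, the 10 expressed genes with the smallest p a direction over 8 libraries, the 8 largest expressed differences without overlap a direction inside C, up to 4 members of a list with the smallest p, and a set of cell markers. Genes outside that rule, such as Isg15, Cxcl1, Ldha, Slc2a1, Arg1, Tpsab1 and Prlr, were chosen after their values were seen. Alternatives covered scaling, filters, pseudocount, variance model, voom weights (on recovered counts), letter blocks, code type, low-count libraries, pair averaging and leaving out each library. A few genes are not reported here.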

Additional observations from a re-analysis of the deposited data

Results flagged for a closer look

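For 19 genes, of which 18 are given here, the excluded minus desert difference inside letter C differed from that outside it, by limma's interaction contrast with Benjamini-Hochberg adjusted p of 0.05 or less. The contrast was positive for Sox2 (8.48), Gas1 (5.06), Vcam1 (5.05), Cd1d1 (5.05), Angpt1 (4.59), Mrc1 (4.53), Siglec1 (4.34), Il6ra (3.62), Csf1r (3.61), Csf1 (3.40), Ccl24 (3.36) and Tlr5 (3.26). It was negative for Epcam (-8.12), Lamb3 (-6.38), Mmp13 (-6.19), Itgb8 (-4.34), Atf3 (-4.30) and Myc (-3.11). The angiopoietin Angpt1, which steadies vessels, was 7.65 and 7.68 in the excluded pair of C against 5.56 and 5.16 in its desert libraries, and 5.12 in A0 against 7.89, 7.0 and 7.33 in F0, G0 and FF2-2809. Il6ra, the receptor for interleukin 6, was 7.88 and 8.04 against 5.85 and 5.46 inside C, and 6.32 against 7.69, 7.73 and 7.48 outside. Integrin beta 8, Itgb8, which activates TGF-beta, was 2.59 and 2.96 against 4.19 and 4.13 inside C, and 7.72 against 5.09, 4.78 and 4.39 outside. The outside effect is that of 1 excluded library.

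Among the named genes 87 were examined for a desert library far from the other 4, and 1 was found, where chance flags about 1 in 20. Fap, a marker of activated fibroblasts, was 2.56 in CF2-2973 and 4.81 to 5.68 in the other desert libraries.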

How the results depend on the processing

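No gene passed between excluded and desert tumours under any of the 21 alternatives run. Genes at an unadjusted p under 0.05 numbered 46 in a 3-class fit to 16 libraries, 20 with the low-count libraries, 41 with the 2784 pair averaged, 170 with the letter as fixed block, 122 in F2 codes only, and 39 (without CF2-2973) to 104 (without FF2-2809) when 1 library was left out. CF2-2784-1 and CF2-2784-2, left out, gave 42 and 43. The fixed letter block took the class difference from letter C alone, the only letter with both classes. Interferon members numbered 6 with the low-count libraries, 4 with the letter block, 3 in F2 codes only and 4 (without A0) to 15 without 1 library, with 9 without CF2-2973. Neutrophil chemokine members numbered 3 in the 3-class fit, 2 with the low-count libraries, 3 with the pair averaged and 3 (without CF2-2784-1 or CF2-2819) to 7 without 1 library. Genes without overlap numbered 5 with the low-count libraries and 61 to 154 (without A0) without 1 library, with 117 without FF2-2809. Inside C, 0 genes passed with the error of 8 libraries, 21 with that of 16, 0 with the low-count libraries, 60 with the pair averaged, 0 with both the pair averaged and the error of all libraries compared, and 61 (without CF2-2784-1) to 411 (without CF2-2819) without 1 library. Without CF2-2784-2 it was 78 and without CF2-2973 352. Macrophage members called higher numbered 0, 0, 0, 3 and 0 in those 5 settings, 6 after recentring and 3 to 16 without 1 library. Hypoxia members called lower numbered 0, 4, 0, 4 and 0, and 4 to 12 without 1 library. Genes without overlap inside C numbered 270 with the low-count libraries and 598 to 694 without 1 library. The interaction gave 11 genes after recentring, 29 with quantile normalisation, 31 over expressed genes, 0 with the pair averaged and 0 to 53 without 1 library. With the low-count libraries included, Tapbpl turned to -0.36 over both classes, and inside C Met turned to 0.07, Aldoa to 0.01, Ldha to 0.93, S100a8 to 0.72 and Nkg7 to -0.04. The detection limits of those libraries, 6.843 to 8.343, exceed the levels of most genes, and the cause of the other shifts was not tested. No paired analysis was possible because the numbers 1 and 2 mark libraries of 1 code number and those of the desert class were left out, so no numbers are shared between the classes compared. Not run were leaving A0 out of the interaction, which it alone supports, and blocking on code number.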

Other observations

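TGF-beta genes and vessel genes were not described above. Inside letter C the ligand Tgfb3 (7.39 and 7.30 in the excluded pair, 6.26 and 6.30 in the desert libraries) and the receptor Tgfbr2 (8.53 and 8.43 against 6.96 and 7.09) were called higher by limma (adjusted p = 0.0399 and 0.023). Over all 8 libraries neither passed, and the TGF-beta and activin list had a median of 0.26, or 0.07 after recentring. Thbs1, a matrix protein that activates TGF-beta, was 9.41, 8.91 and 9.13 in excluded libraries and 8.43, 7.99, 7.60, 7.30 and 8.99 in desert libraries. FF2-2809 overlapped the excluded libraries, and the adjusted p was 0.508 over 8 libraries and 0.0244 inside C. The endothelial marker Pecam1 was 8.43, 7.28 and 7.4 in excluded and 9.13, 8.34, 6.54, 7.12 and 6.77 in desert libraries, highest in the 3 libraries with 0 codes. The stromal chemokine Cxcl12 was 4.12, 5.69 and 6.06 in excluded and 7.56, 5.06, 7.4, 8.17 and 5.13 in desert libraries, and was called lower inside C (difference -1.91, SE 0.36, adjusted p = 0.0329). The estrogen receptor gene Esr1 was 5.55 and 5.54 in the excluded pair of C against 3.83 and 3.67, while outside C the desert library FF2-2809 had 6.01 and A0 4.16.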
